A study of Mus musculus with 10 samples.

Results

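Gene expression in MC3T3-E1 cells was compared between β-ecdysterone at 100, 150 and 200 μM and 0 μM after 5 days of culture. β-Ecdysterone is a plant sterol, and MC3T3-E1 is a line of osteoblast precursors derived from newborn mouse skull. The members were chosen by the dose and day in the labels, which gave 4 of the 10 libraries of the series. They comprised 3 libraries from treated cells (1 per dose) and 1 library from cells at 0 μM. All 4 were labelled as third-passage C57BL/6 newborn cells grown in standard medium, and all came from the same line, purchased as subclone 14. The libraries differed in dose only, so each dose was taken as 1 replicate of treatment, and nothing in the labels shows that they came from separate cultures. The p-values below therefore measure the spread between these libraries. The title names MC3T3-E1, whereas the source field names bone marrow mesenchymal stem cells. Both sets of markers were therefore read below. A further 2 libraries were labelled only as untreated (A-5 and B-4), with no time given, and served as other controls.

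Osteoblast precursors pass from proliferation to deposition of a collagen matrix and then to its mineralization. The transcription factors Runx2 and Sp7 (osterix) drive this course, and signals of the BMP, Wnt, IGF and FGF families act on it. Steroid hormones enter the cell and switch genes through nuclear receptors, and several matrix and inflammatory genes of osteoblasts are known to respond to them.

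Total counts were 48951468 at 0 μM, 29833654 at 100 μM, 57220036 at 150 μM and 29637936 at 200 μM. Levels are given as CPM, which are counts scaled to the normalized library size. Where a library had 0 counts, a limit of 3 counts was used, which stood for 0.0607 CPM at 0 μM and 0.0515 to 0.103 CPM in treated cells. Such limits cover counting error only. A gene was counted as higher or lower when its log2 CPM differed from 0 μM by more than 1 (a change of over 2-fold) in the same direction at all 3 doses. A test across genes (edgeR's quasi-likelihood test, adjusted p under 0.05 and log2 fold change beyond 1) was run beside this count. The words rose and fell are used only for genes called by that test. With a single control library the spread comes from the 3 doses alone, and an exact permutation test of 1 gene could not give a one-sided p below 0.25.

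Of the markers read for the identity of the cells, all 10 of skull osteoprogenitors passed the filter on low counts. Of these, 2 were higher and 0 lower at all 3 doses. Their summed level was 3825 FPKM (a value scaled to transcript length) at 0 μM and between 7732 and 9554 FPKM in treated cells, but Postn alone carried this rise: without it the other 9 summed to 3644 FPKM at 0 μM and 2977 to 4166 FPKM in treated cells. For marrow stromal cells 5 of 6 markers passed, with a sum of 205 FPKM at 0 μM and 112 to 141 FPKM in treated cells. Cxcl12 made up most of it. The list had 2 members higher at all 3 doses (Lepr and Kitl) and 0 lower, and Lepr, which defines these cells, stood at 0.153 FPKM at 0 μM. The 4 macrophage markers of 10 that passed summed to 18.0 FPKM at 0 μM and 24.1 to 44.8 FPKM in treated cells, of which Lyz2 made up 10.7 and 21.3 to 41.7 FPKM, while Cd68 and Csf1r were not higher. Adipocyte (7 of 12), skeletal muscle (6 of 10), endothelial (4 of 7) and epithelial (2 of 6) markers each summed to at most 5.37 FPKM in every library. Chondrocyte markers (7 of 9) summed to 19.0 FPKM at 0 μM and 19.3 to 26.6 FPKM in treated cells. The markers of muscle and endothelium were higher in treated cells, with 3 of 6 and 3 of 4 members higher at all 3 doses, but from sums of 0.8 and 0.28 FPKM at 0 μM. Krt14 (epithelium), Car3 (fat) and Hapln1 (cartilage) had 0 counts there. In these bulk libraries fewer cells of a type and less RNA per cell cannot be told apart.

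At day 5, 1952 of the 17168 genes tested (11.4%) were higher at all 3 doses and 703 (4.09%) were lower. Of these, edgeR also called 1343 and 569. In all, edgeR called 1474 genes as risen (8.59%) and 764 as fallen (4.45%), and 6176 genes had an unadjusted p under 0.05. The median log2 difference over all genes was 0.02. The genes that were higher included 779 newly assembled loci, which have no gene name, against 102 among those that were lower. These were 26.6% and 3.5% of the new loci tested, whereas 8.2% of the Ensembl genes tested were higher and 4.2% lower. The gene lists below hold Ensembl genes only, so their counts stand beside shares of 8.2% higher and 4.2% lower. Many of the genes that were higher were close to the detection limit at 0 μM: 530 had 0 counts there and 774 had at most 3. At a mean of at least 5 CPM the numbers were closer, with 463 genes higher and 360 lower. Through the treated libraries alone 2434 genes passed the filter on low counts, and 274 passed through 0 μM alone. Without the 200 μM library, 1885 of the 1952 genes were still higher and 702 of the 703 still lower by fold at the remaining doses. The edgeR calls were far fewer without this library: 237 genes rose and 135 fell, whereas without 100 μM 1750 rose and 831 fell. Of the 95 named genes that edgeR had called, 52 remained called without 200 μM. The 43 named genes no longer called had adjusted p-values between 0.0502 and 0.192 from edgeR, among them Runx2 (0.0695), Ibsp (0.0541), Dmp1 (0.0871), Tnc (0.0502), Col3a1 (0.0825), Mmp2 (0.101), Rnf43 and Wif1 (both 0.0521), Igfbp5 (0.0802), Etv5 (0.0917), Il6 (0.0521), Pkm (0.0559) and Birc5 (0.0803).

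**Figure D1:**
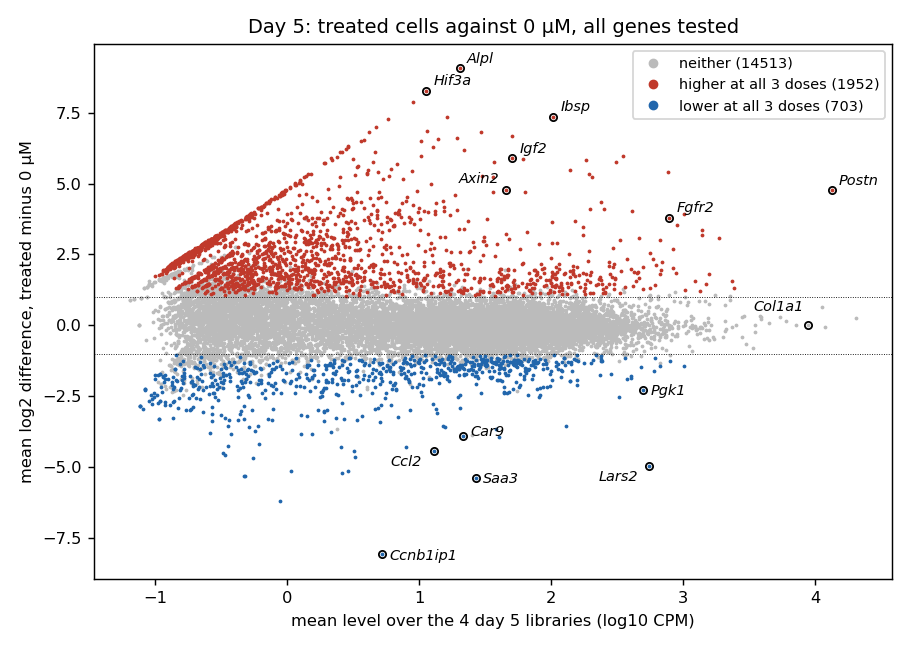
Each point is 1 of the 17168 genes tested, with its mean level over the 4 day 5 libraries on the x axis (log10 CPM) and the mean over the 3 doses of its log2 difference from 0 μM on the y axis. Red points (1952) were higher and blue points (703) lower at all 3 doses, dotted lines mark a difference of 1 in either direction, and the straight upper edge on the left is made of genes with 0 counts at 0 μM. Postn lies far above other genes of its level, while Col1a1 lies at 0.01.

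The untreated libraries differed from 0 μM in the same direction for many of these genes. Of the 1952 genes that were higher, 1165 were also higher at all 3 doses when A-5 was the control and 716 when B-4 was. Of the 703 that were lower, 324 and 74 were also lower against A-5 and B-4. Against all 3 controls 546 genes were higher and 60 lower. The 0 μM library stood apart in Lars2, the mitochondrial leucyl-tRNA synthetase. Lars2 was at 2025 CPM at 0 μM, and at 72.2, 62.6 and 58.1 CPM at 100, 150 and 200 μM. It was at 72.5 CPM in A-5 and 144 CPM in B-4, so the high level was seen in the 0 μM library alone among these 6. The part of each control library in the results was not tested, and the counts against A-5 and B-4 are given with each gene list below. The counts for KEGG pathways and Gene Ontology terms are against 0 μM alone.

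**Figure D2:**
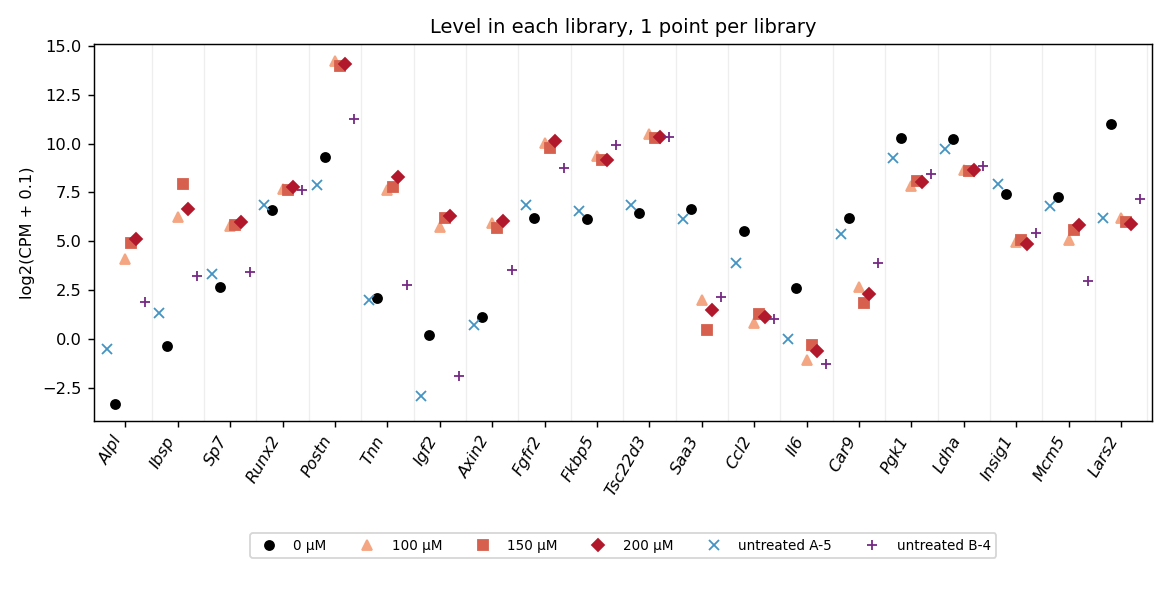
Level of 20 genes in each library, as log2(CPM + 0.1), with 1 point per library: black circles for 0 μM, red symbols for the 3 doses, a cross for untreated A-5 and a plus sign for untreated B-4. For Tnn, Igf2 and Sp7 the 3 doses lie above all 3 controls, for Fkbp5, Tsc22d3, Il6 and Ccl2 B-4 lies near the doses, for Mcm5 it lies below them, and for Lars2 only 0 μM stands apart.

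To describe the osteoblast program, the transcription factors that guide it were read first. Of 15 factors, 4 were higher (26.7%) and 1 lower at all 3 doses. Sp7, which acts downstream of Runx2, was at 6.22 CPM at 0 μM and at 54.3, 57.6 and 63.1 CPM at 100, 150 and 200 μM. It rose 9.39-fold, and the 3 doses differed little (mean log2 difference 3.22 ± 0.11, SD, n = 3; adjusted p = 9.2e-05 from edgeR). Runx2 was at 96.5 CPM at 0 μM and at 206, 196 and 217 CPM at the 3 doses. Its rise was 2.14-fold (adjusted p = 0.0022 from edgeR), and B-4 held 198 CPM, within the range of the doses. Zfp521, a zinc finger protein of early osteoblasts, rose 3.95-fold and Alx4, a homeobox factor of the skull, 2.49-fold. Runx1 fell from 76.9 CPM to between 29.6 and 36.0 CPM, and it was at 18.4 CPM in B-4. Twist1, at a mean log2 difference of 0.47, was within 2-fold. Against A-5 2 of the 4 factors remained higher, and against B-4 only Sp7, while Runx1 was lower against neither.

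Bone matrix and mineralization genes moved apart. Of 20 tested, 6 were higher and 1 lower, and their median log2 difference was -0.03, beside 0.02 over all genes. Alpl, the alkaline phosphatase that frees phosphate for mineral, had 0 counts at 0 μM and 16.7, 30.4 and 34.2 CPM at 100, 150 and 200 μM. It was at least 446-fold higher (adjusted p = 0.00029 from edgeR), and was at 0.606 CPM in A-5 and 3.55 CPM in B-4. Ibsp, the bone sialoprotein that nucleates mineral, was at 0.689 CPM at 0 μM and at 75.7, 240 and 99.0 CPM at the 3 doses. It rose 201-fold (adjusted p = 0.0014 from edgeR), with 150 μM above the other doses, and both untreated libraries (2.42 and 9.24 CPM) stood below the doses. Mgp, a matrix inhibitor of calcification, rose from 280 CPM to 2346, 1951 and 2824 CPM, although B-4 held 2310 CPM. Omd (osteomodulin) rose 18.2-fold against 0 μM but was at 102 CPM in B-4, above the 3 doses. Mepe, a phosphoprotein of late osteoblasts and osteocytes, had 0 counts at 0 μM and at most 0.549 CPM in treated cells. Dmp1, another phosphoprotein of osteocytes, fell from 4.23 CPM to 0.309, 0.807 and 0.271 CPM (adjusted p = 0.0054 from edgeR). Of the 6 that were higher, 4 were higher against A-5 and 3 against B-4. Dmp1 was lower against A-5 (11.4 CPM) but not against B-4, which at 0.440 CPM lay within the range of the doses.

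Type I collagen, the main protein of bone, was not among the genes that changed against 0 μM. Col1a1 was at 8591 CPM at 0 μM and at 10285, 6172 and 10110 CPM at 100, 150 and 200 μM. Its log2 difference was 0.01 ± 0.42 (SD, n = 3; adjusted p = 0.93 from edgeR), with 150 μM below 0 μM and the other doses above it. Col1a2 had a log2 difference of -0.06 ± 0.27 (adjusted p = 0.91). Both untreated libraries stood below 0 μM and below all 3 doses for these genes. Col1a1 was at 4321 CPM in A-5 and 3418 CPM in B-4. Col1a2 was at 7635 and 6900 CPM there, beside 13294, 9327 and 12546 CPM at the doses. Osteopontin (Spp1) and osteocalcin (Bglap), later markers named after their values were seen, had log2 differences of -0.91 (adjusted p = 0.026, within 2-fold) and -0.11 (adjusted p = 0.93). Bglap was below 1 CPM in each of the 4 libraries.

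The bases before the start of Ibsp, a gene among the largest rises, and of Mmp13, a collagenase of osteoblasts that is a known Runx2 target, are shown from RefSeq (build GRCm38.p6). Each run covers the 160 bases before the start on the plus strand. Capitals mark a TATA box (TATAAA, or TTTATA on the other strand) in Ibsp at chr5:104299127-104299286 and a Runx site (TGTGGT, or ACCACA on the other strand) in Mmp13 at chr9:7272354-7272513.
Ibsp: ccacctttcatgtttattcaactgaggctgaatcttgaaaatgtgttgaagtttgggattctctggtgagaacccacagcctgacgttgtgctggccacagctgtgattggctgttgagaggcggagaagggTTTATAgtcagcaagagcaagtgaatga
Mmp13: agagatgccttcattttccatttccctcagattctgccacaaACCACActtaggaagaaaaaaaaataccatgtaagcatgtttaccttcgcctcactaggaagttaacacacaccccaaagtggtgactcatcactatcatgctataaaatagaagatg
The match lay 28 bases before the start in Ibsp and 118 bases before it in Mmp13. Over promoter windows of 300 bases, TATAAA was present in 7.83% of the 13964 windows of all genes tested, 12.8% of the 1113 windows of genes that were higher and 8.46% of the 532 of genes that were lower. TGTGGT was present in 13.1, 14.9 and 13.9%. Mmp13 was at 19.0 CPM at 0 μM and at 344, 371 and 276 CPM at 100, 150 and 200 μM, and rose 17.4-fold (adjusted p = 9.2e-05 from edgeR). B-4 held 616 CPM, above all 3 doses.

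Among other matrix genes, the matricellular proteins, which sit in the matrix and signal to cells, had 9 of 19 members tested higher (47.4%) and 1 lower, with a median log2 difference of 0.95. Periostin (Postn), which binds collagen in periosteum, was at 644 CPM at 0 μM and at 19094, 16223 and 17266 CPM at 100, 150 and 200 μM. This was the largest rise in CPM of all named genes, at 27.2-fold (adjusted p = 6.1e-05 from edgeR), and B-4 held 2455 CPM. Tenascin N (Tnn) was at 4.13 CPM at 0 μM and at 195, 218 and 311 CPM at the 3 doses. It rose 58.4-fold (adjusted p = 0.00011 from edgeR), and the untreated libraries held 3.87 and 6.70 CPM, close to 0 μM. Tenascin C (Tnc) rose from 31.4 CPM to 359, 691 and 560 CPM, and the untreated libraries were below 0 μM at 3.43 and 22.0 CPM. Against A-5 7 of the 9 genes were still higher and against B-4 4, while 1 was over 2-fold lower than B-4 at all 3 doses.

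Of 26 collagens, 6 were higher (23.1%) and 2 lower (7.7%), beside 8.2% and 4.2% of all Ensembl genes tested. Col3a1, the type III chain found with type I in soft matrix, rose from 938 CPM to 2334, 2964 and 3127 CPM (adjusted p = 0.0025 from edgeR). Col6a3 rose 3.54-fold, Col27a1 3.53-fold and Col15a1 17.5-fold, the last from 0.425 CPM. Of the 6 collagens 5 were higher against A-5 and 2 against B-4, and of the 2 that were lower 0 against either. Of 18 matrix proteases and inhibitors, 6 were higher (33.3%) and 2 lower (11.1%). Mmp2, a gelatinase, rose from 1147 CPM to 3191, 2464 and 2916 CPM, and Adamts1, which cleaves proteoglycans, rose 11.6-fold from 101 CPM. All 6 were higher against A-5 and 3 against B-4, and the 2 lower ones were lower against A-5 alone. The integrins, receptors for matrix, gave 4 higher (23.5%) and 3 lower (17.6%) of 17: Itga8 rose 8.36-fold and Itga10, a collagen receptor, 4.76-fold. Of the 4, 3 were higher against A-5 and 2 against B-4, and of the 3 that were lower 1 against each. In the deposited KEGG annotation, ECM-receptor interaction had 33 of 101 genes higher (32.7%) and 5 lower (5.0%). Focal adhesion had 35 of 214 higher (16.4%) and 13 lower (6.1%), beside 11.4% and 4.09% over all genes.

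Signals that act on osteoblasts were read by family, from ligands to targets. For the BMP family, 3 of 13 ligands, receptors and Smads were higher (23.1%) and 0 lower, beside 8.2% and 4.2% of all Ensembl genes tested. All of the 3 were ligands at low levels. Bmp8a had 0 counts at 0 μM and 1.03, 0.961 and 0.576 CPM at 100, 150 and 200 μM, at least 14.1-fold higher. Bmp8b, a close copy of Bmp8a with which reads may be shared, had 2 counts at 0 μM and a ratio of 5.91 (95% interval 1.63 to 48.8, exact Poisson) and was not called by edgeR (adjusted p = 0.14). Gdf6 rose from 2.31 CPM to 7.03, 6.78 and 5.52 CPM, and the untreated libraries held 5.89 and 5.01 CPM. Of the 3 ligands, 1 was higher against A-5 and 0 against B-4. Smad4, the partner of the receptor Smads, had a log2 difference of -0.18 ± 0.05 (adjusted p = 0.36). Bmp2 did not pass the filter on low counts. Of 15 antagonists and target genes, Tmem100 rose 10.9-fold, the antagonist Grem1 fell from 74.8 CPM to 12.4, 17.7 and 12.9 CPM (12.2 CPM in B-4), and the other 13 were not counted. Both were counted in the same direction against A-5 and neither against B-4. The deposited Gene Ontology term BMP signaling pathway had 7 of 23 genes higher (30.4%, beside 11.4% over all genes) and 0 lower.

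In the Wnt family, targets were read first. Of 13 genes known to be switched on by canonical Wnt signalling, 6 were higher (46.2%) and 0 lower, 4 of them called by edgeR, with a median log2 difference of 1.32. Axin2, a negative regulator that the pathway itself induces, was at 2.11 CPM at 0 μM and at 61.5, 51.1 and 66.5 CPM at 100, 150 and 200 μM. It rose 28.3-fold (adjusted p = 6.8e-05 from edgeR). A-5 held 1.51 CPM and B-4 11.4 CPM, both below the doses. Rnf43, which removes Wnt receptors from the membrane, rose 5.82-fold and Nkd2, an inhibitor of Dishevelled, 23.4-fold from 4 counts. Nkd1, also among the 6, had 0 counts at 0 μM and 0 CPM in A-5 and B-4. It had 2, 10 and 12 counts at 100, 150 and 200 μM and was not called by edgeR. Nkd1 and Nkd2 passed the filter on low counts through the treated libraries alone, so neither could have been counted as lower. Myc (log2 difference 0.84 ± 0.17) and Ccnd1 (-0.01 ± 0.19) were not counted. Of 24 Wnt ligands, receptors and antagonists, 8 were higher and 2 lower. The secreted antagonists Wif1 and Dkk2 rose 57.1-fold (to 7.10, 15.8 and 11.8 CPM) and 32.9-fold (to 2.81, 6.25 and 2.95 CPM). The ligand Wnt4 rose 11.5-fold and the receptor Fzd9 10.8-fold. Of the 8 components that were higher, 8 were higher against A-5 and 5 against B-4, and of the 6 targets 5 and 4. Of the 2 lower components 1 was lower against A-5 and 0 against B-4. In the deposited annotation, KEGG Wnt signaling pathway had 23 of 160 genes higher (14.4%) and 6 lower, with a median of -0.05, and the Gene Ontology term canonical Wnt signaling pathway 4 of 20 higher and 0 lower.

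In the IGF axis, 4 of 13 genes were higher and 1 lower. Igf2, a growth factor stored in bone matrix, was at 1.05 CPM at 0 μM and at 52.2, 71.7 and 77.2 CPM at 100, 150 and 200 μM. It rose 63.7-fold (adjusted p = 9.2e-05 from edgeR), and it was lower still in the untreated libraries (0.0337 and 0.169 CPM). Igfbp5, which binds IGFs in matrix, rose from 48.7 CPM to 293, 685 and 309 CPM, and Pappa, a protease that frees IGF from its binding proteins, rose 2.68-fold. All 5 genes counted in this axis were counted against each of the 3 controls. They include Igfbp2, which had 0 counts at 0 μM, 0 CPM in A-5 and B-4, and 0.137, 0.549 and 0.643 CPM at the doses. It passed the filter on low counts through the treated libraries alone, so it could not have been counted as lower. In the FGF axis the receptors Fgfr2 (72.4 CPM to 1053, 887 and 1105 CPM) and Fgfr3 (5.70-fold) rose, whereas 5 of the 13 genes were lower, all of them feedback inhibitors or target genes of the pathway. Etv5, an ETS factor induced by FGF, fell from 25.5 CPM to 3.77, 7.91 and 4.06 CPM, and Etv4 from 7.11 CPM to 1.03, 3.04 and 1.18 CPM. Of the 3 genes of the axis that were higher, 3 were higher against A-5 and 2 against B-4. Of the 5 lower ones 4 were lower against A-5 and 0 against B-4, where Etv5 was at 2.0 CPM. Of other receptors, Pth1r, for parathyroid hormone, rose 4.38-fold and was higher against each of the 3 controls. Of 9 Notch pathway genes tested, 2 were higher (22.2%) and 0 lower. Notch1 rose 2.68-fold, to between 220 and 282 CPM, but A-5 held 136 CPM and B-4 181 CPM. Neither of the 2 genes was higher against A-5 or B-4.

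Genes that respond to steroid hormones were among the higher genes. Of 16 glucocorticoid-responsive genes, 8 were higher and 0 lower, with a median log2 difference of 1.33. Tsc22d3 (GILZ), a classical target of the glucocorticoid receptor, was at 87.6 CPM at 0 μM and at 1422, 1253 and 1294 CPM at 100, 150 and 200 μM. It rose 15.1-fold (adjusted p = 6.2e-05 from edgeR). Fkbp5, a co-chaperone of the receptor, was at 70.2 CPM at 0 μM and at 657, 567 and 568 CPM at the 3 doses (8.51-fold, adjusted p = 0.0001 from edgeR). In B-4, however, Tsc22d3 was at 1298 CPM and Fkbp5 at 974 CPM, within or above the range of the doses, while A-5 held 114 and 91.8 CPM, near 0 μM. Zbtb16 rose 63.6-fold from 5 counts, and the metal-binding proteins Mt1 and Mt2, which also respond to metals and oxidants, 5.11-fold and 5.90-fold. Hif3a, a hypoxia factor of this list, had 0 counts at 0 μM and 14.5, 13.8 and 16.8 CPM at the doses, at least 248-fold higher (2.40 CPM in B-4). Against A-5 7 of the 8 were higher, and against B-4 2, where the median over the list was 0.01. The letters AGAACA, part of the glucocorticoid receptor's site, were present in 12.9% of all promoter windows, 18.3% of those of genes that were higher and 11.7% of those of genes that were lower. Windows of the higher genes also differed from all windows in other letters, with TATAAA more frequent (12.8% against 7.83%) and ACGTG less (18.8% against 24.2%). The cause of these differences was not tested.

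Of 7 estrogen receptors and responsive genes, 2 were higher, and Greb1, a coactivator induced by estrogen, rose from 1.05 CPM to 18.6, 18.6 and 22.9 CPM (6.56 CPM in B-4). Both were higher against A-5 and 1 against B-4. Of 9 genes of retinoid handling, 4 were higher and 0 lower. Aldh1a1, which makes retinoic acid, was at 4.03 CPM at 0 μM and at 177, 190 and 184 CPM at 100, 150 and 200 μM. It rose 45.6-fold (adjusted p = 2.2e-05 from edgeR), but B-4 held 180 CPM. Cyp26b1, which degrades retinoic acid, rose from 14.8 CPM to 208, 378 and 357 CPM. Here the untreated libraries held 15.1 and 23.8 CPM, near 0 μM. All 4 were higher against A-5 and 1 against B-4. KEGG Retinol metabolism had 17 of 46 genes higher (37%) and 0 lower.

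Chemokines were mostly lower than at 0 μM. Of 9 chemokines, 6 were lower (66.7%) and 0 higher, with a median log2 difference of -2.19. Ccl2, which draws monocytes, was at 45.6 CPM at 0 μM and at 1.68, 2.35 and 2.10 CPM at 100, 150 and 200 μM. It fell by 4.46 on the log2 scale (SD 0.24, n = 3; adjusted p = 3.4e-05 from edgeR). A-5 held 14.6 CPM and B-4 1.90 CPM, the latter within the range of the doses. Its neighbour Ccl7 fell from 27.7 CPM to 1.51, 1.65 and 1.02 CPM and was at 12.1 and 4.20 CPM in A-5 and B-4, above all doses. Cxcl12 was at 562 CPM at 0 μM and had a log2 difference of -1.01, with the difference at 100 μM (-0.84) within 2-fold, and it was at 265 CPM in A-5 and 179 CPM in B-4, within and below the range of the doses (259 to 315 CPM). Against A-5 4 of the 6 were lower and against B-4 1. Against B-4, 2 of the 6 were over 2-fold higher at all 3 doses, and the median over the list was 0.62.

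Of 17 NF-kB and acute phase genes, 6 were lower and 0 higher. Saa3, an acute phase protein, was at 99.7 CPM at 0 μM and at 3.81, 1.25 and 2.67 CPM at 100, 150 and 200 μM. It fell by 5.38 on the log2 scale (SD 0.80; adjusted p = 0.00021 from edgeR), and it was at 70.1 CPM in A-5 and 4.26 CPM in B-4. Nos2, the inducible nitric oxide synthase, fell from 10.8 CPM to 0.309, 0.378 and 0.135 CPM, and Nfkbiz, an inducible partner of NF-kB, from 135 CPM to 9.99, 8.69 and 7.45 CPM. Il6 fell from 5.91 CPM to 0.378, 0.704 and 0.542 CPM, and held 0.909 CPM in A-5 and 0.305 CPM in B-4. Csf1 was at 1116 CPM at 0 μM and within 2-fold at -0.88, with 776 CPM in A-5 and 457 CPM in B-4 beside 560 to 659 CPM at the doses. Against A-5 3 of the 6 were lower and against B-4 0, where the median over the list was 0.24. The AP-1 subunit Fosl1 fell from 122 CPM to 7.79, 13 and 8.43 CPM. Of 24 interferon-response genes, Oas2 and Mx2 were higher (3.30-fold and 3.01-fold) and Irf1 and Gbp2 lower. This was 8.3% each way, beside 8.2% higher and 4.2% lower among Ensembl genes, so the share that was higher was near that over Ensembl genes. Against A-5 0 were higher and 1 lower, against B-4 2 and 0. The Gene Ontology term inflammatory response had 11 of 67 genes lower (16.4%) and 6 higher (9.0%). Immune response had 12 of 120 lower (10.0%) and 18 higher (15.0%). Over all genes 4.09% were lower and 11.4% higher.

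The bases before the start of Il6 are shown as an example of a fallen gene with a known NF-kB site near its start. Capitals mark the letters GGGA and CC with any 4 bases between them, read on both strands, in the 160 bases of chr5:30012954-30013113 (GRCm38.p6, plus strand).
Il6: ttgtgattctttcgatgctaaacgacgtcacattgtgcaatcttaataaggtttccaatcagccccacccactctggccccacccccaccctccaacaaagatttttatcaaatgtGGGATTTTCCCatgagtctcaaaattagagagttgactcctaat
The match began 44 bases before the start and overlapped one on the other strand. The same letters were present in 26.0% of all windows, 24.4% of those of higher and 31.2% of those of lower genes.

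Glycolysis, which splits glucose to pyruvate and lactate, was lower at each dose. Of its 16 genes, 11 were lower (68.8%) and 0 higher, all of them but Aldoc called by edgeR, with a median log2 difference of -1.45. Pgk1, which yields the first ATP of the pathway, was at 1228 CPM at 0 μM and at 225, 273 and 261 CPM at 100, 150 and 200 μM. It fell by 2.28 on the log2 scale (SD 0.15; adjusted p = 0.00012 from edgeR). Ldha, the lactate dehydrogenase subunit, was at 1224 CPM at 0 μM and at 397, 386 and 407 CPM at the doses, a fall by 1.63 (SD 0.04). Pkm (1937 CPM to 733, 689 and 726 CPM), Eno1 (by 1.89) and Pfkl (by 1.85) fell with them. The summed level of the 16 genes was 4230 FPKM at 0 μM and 1426 to 1439 FPKM at the 3 doses. Gapdh fell by 2.09, but this gene and several others of the pathway have processed copies in the genome with which reads may be shared, so their levels are uncertain. A-5 and B-4 lay between 0 μM and the doses for Pgk1 (619 and 347 CPM) and Ldha (850 and 464 CPM). Against A-5 6 of the 11 were lower and against B-4 1, while another 1 was over 2-fold higher than B-4 at all 3 doses.

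Of 16 other genes induced by low oxygen, 9 were lower (56.2%) and 1 higher. Car9, a carbonic anhydrase of the cell surface, was at 71.7 CPM at 0 μM and at 6.25, 3.54 and 4.88 CPM at 100, 150 and 200 μM. It fell by 3.90 on the log2 scale (SD 0.41; adjusted p = 0.00011 from edgeR), and the untreated libraries held 40.9 and 14.7 CPM, above every dose. P4ha1, a collagen prolyl hydroxylase, fell from 350 CPM to 83, 101 and 89.7 CPM, below the untreated libraries (277 and 225 CPM). P4ha2 fell from 95.2 CPM to between 37 and 38.2 CPM, but both untreated libraries were at that level (37.5 and 36.8 CPM). Egln3, an oxygen sensor, fell by 2.21 and Ankrd37 by 3.59. Hif1a itself had a log2 difference of -0.04 ± 0.20 (adjusted p = 0.93) and Vegfa one of -0.43 ± 0.09 (adjusted p = 0.055). Against A-5 4 of the 9 were lower and against B-4 4. KEGG HIF-1 signaling pathway had 20 of 110 genes lower (18.2%) and 8 higher, and the Gene Ontology term response to hypoxia 8 of 73 genes lower and 8 higher.

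To show sequence near the start of genes that were lower together, 4 promoters of these 2 groups follow, as the 160 bases before the start on the plus strand of GRCm38.p6. Capitals mark the core of the hypoxia response element, ACGTG, or CACGT on the other strand. The regions are chr4:43506866-43507025 for Car9, chr10:59323136-59323295 for P4ha1, chrX:106186940-106187099 for Pgk1 and chr7:46845644-46845803 for the upstream start of Ldha.
Car9: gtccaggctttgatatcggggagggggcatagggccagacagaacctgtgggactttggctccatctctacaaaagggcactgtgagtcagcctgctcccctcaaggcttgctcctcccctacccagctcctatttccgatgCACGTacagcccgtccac
P4ha1: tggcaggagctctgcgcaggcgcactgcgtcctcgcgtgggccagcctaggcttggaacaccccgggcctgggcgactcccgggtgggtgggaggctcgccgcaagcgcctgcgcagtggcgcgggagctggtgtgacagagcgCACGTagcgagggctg
Pgk1: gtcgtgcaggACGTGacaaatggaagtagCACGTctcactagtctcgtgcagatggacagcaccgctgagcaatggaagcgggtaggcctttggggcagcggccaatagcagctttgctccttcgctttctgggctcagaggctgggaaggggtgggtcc
Ldha: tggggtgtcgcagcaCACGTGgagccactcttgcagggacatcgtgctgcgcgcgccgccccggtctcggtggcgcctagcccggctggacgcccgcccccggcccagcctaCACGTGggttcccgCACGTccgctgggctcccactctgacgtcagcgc
Car9 held 1 match, 18 bases before the start, P4ha1 1 at 16 bases, and Pgk1 2 at 150 and 131 bases. Ldha held 5, because CACGTG, which is also the E-box, matches on both strands. Over all genes tested 24.2% of windows held ACGTG, against 22.4% for genes that were lower and 18.8% for genes that were higher, so the share was no higher in the lower genes than in all genes.

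Cholesterol synthesis and uptake, which is controlled by sterols through Srebf2, had 17 of 23 genes lower (73.9%) and 2 higher, with a median log2 difference of -1.42. Insig1, a sterol-regulated brake of the pathway, was at 171 CPM at 0 μM and at 30.6, 33.9 and 28.5 CPM at 100, 150 and 200 μM. It fell by 2.46 on the log2 scale (SD 0.12; adjusted p = 7.8e-05 from edgeR). Idi1, an isomerase early in the pathway, fell from 110 CPM to 25.1, 28.4 and 13.3 CPM. Abca1, the transporter that exports cholesterol, went the other way, from 1.44 CPM to 21.2, 18.8 and 26.3 CPM (15.4-fold). A-5 was above 0 μM for Insig1 (241 CPM) and Idi1 (149 CPM), whereas B-4 was at 43.3 and 19.8 CPM. All 17 genes were lower against A-5 and 0 against B-4, and of the 2 higher ones 1 and 0 were higher.

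Of 26 cell cycle genes, 11 were lower (42.3%) and 0 higher, and edgeR called 17 as fallen. Mcm5, of the helicase that unwinds DNA for replication, was at 152 CPM at 0 μM and at 33.4, 47.4 and 56.9 CPM at 100, 150 and 200 μM. It fell by 1.76 on the log2 scale (SD 0.39; adjusted p = 0.0024 from edgeR). Birc5 and Cdc20, which act in mitosis, fell by 1.61 and 1.60. The fall was deeper at 100 μM than at the other doses for Mcm5 (-2.19), Birc5 (-2.02), Cdc20 (-1.97) and Mcm3 (-1.97). Against A-5 0 of the 11 were lower, and against B-4, where Mcm5 was at 7.65 CPM, 10 of the 11 were over 2-fold higher at all 3 doses. The 4 inhibitors of cyclin-dependent kinases gave 0 calls, and Cdkn1a had a log2 difference of 0.17 ± 0.15 (adjusted p = 0.48). KEGG DNA replication had 12 of 40 genes lower (30.0%) and 0 higher, and KEGG Cell cycle 18 of 126 lower (14.3%) and 3 higher. The Gene Ontology term cell cycle had 3 of 94 genes lower (3.2%), near the share over all genes, and 2 higher. Among targets of the oxidant sensor Nrf2, 5 of 13 were lower and 2 higher, and Nqo1 fell from 111 CPM to 28.2, 18.8 and 17.5 CPM, below A-5 (141 CPM) and B-4 (62.1 CPM). Of the 5, 3 were lower against A-5 and 2 against B-4, and the 2 higher ones were higher against A-5 alone.

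**Figure D3:**
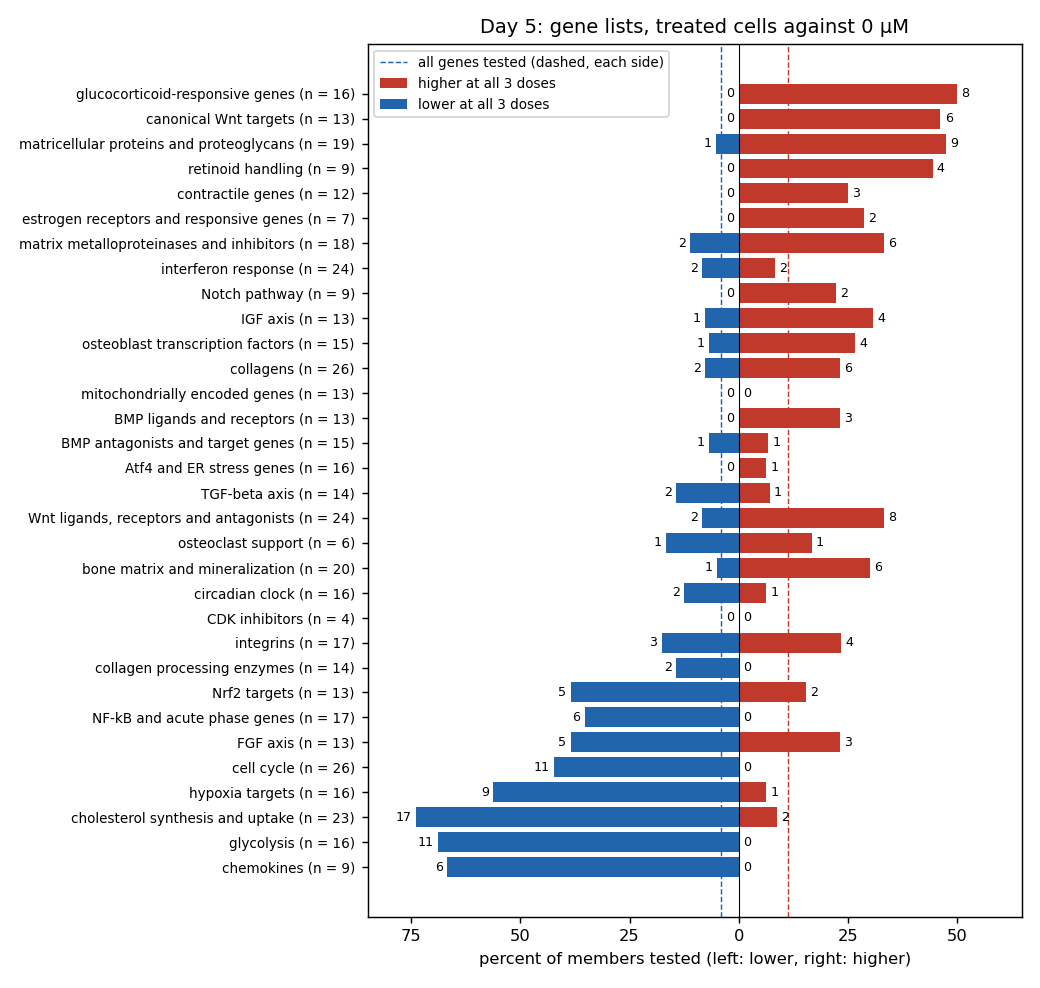
Percent of the tested members of each gene list that were higher (red, right) or lower (blue, left) than 0 μM at all 3 doses, in order of the median log2 difference, with the number of genes at the end of each bar and dashed lines at the percentages over all genes tested (11.4 and 4.09%). Chemokines, glycolysis, cholesterol and hypoxia lists lie at the bottom with 6, 11, 17 and 9 genes lower, and glucocorticoid-responsive genes at the top with 8 higher. The lists hold Ensembl genes only, for which the percentages were 8.2 higher and 4.2 lower.

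Housekeeping groups had few genes counted. KEGG Ribosome had 2 of 165 genes higher and 1 lower, Oxidative phosphorylation 4 and 1 of 127, and Proteasome 0 of 49 in either direction. The 13 mitochondrially encoded genes gave 0 calls, with a median log2 difference of 0.28, and summed to 37025 FPKM at 0 μM, 36592 and 38796 FPKM at 100 and 200 μM and 50334 FPKM at 150 μM. The Gene Ontology term DNA integration had 28 of 57 genes higher (49.1%) and 1 lower, beside 26.6% higher among all newly assembled loci. Its summed level did not differ in this way, at 278 FPKM at 0 μM and 236, 278 and 259 FPKM at 100, 150 and 200 μM.

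**Figure D4:**
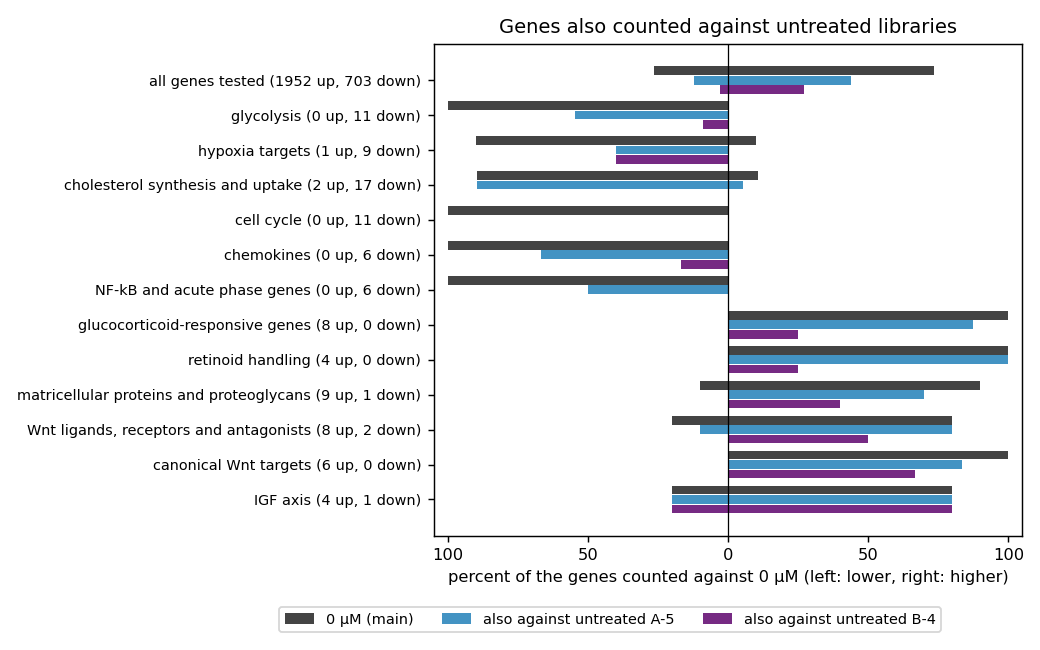
For all genes and 12 gene lists, the genes higher (right) or lower (left) than 0 μM at all 3 doses are set to 100 percent together (dark bars), and coloured bars give the percent that was also beyond 2-fold in the same direction against untreated A-5 or B-4. The IGF axis held against both, cholesterol genes against A-5 alone and cell cycle genes against neither. Igfbp2 of the IGF axis had 0 CPM in every control.

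The largest changes among named genes at 5 CPM or more came from several groups. Besides Alpl, Hif3a and Ibsp, the largest rises were in Mettl21e (a methyltransferase of muscle, 0 counts at 0 μM and at least 196-fold higher), Tspan18 (a tetraspanin, 268-fold from 4 counts), Oca2 (a melanosomal transporter, 187-fold from 4 counts), Sult1a1 (a sulfotransferase, 137-fold) and Tnfrsf19. Tnfrsf19 (TROY), a receptor of mesenchymal progenitors, was at 0.547 CPM at 0 μM and at 33.7, 90.4 and 77.5 CPM at 100, 150 and 200 μM, against 0.707 and 8.16 CPM in the untreated libraries. Sult1a1 was at 61.1 CPM in B-4, above all doses. Mettl21e was at 8.24, 16.6 and 10.9 CPM at the doses, with 0.101 CPM in A-5 and 7.55 CPM in B-4. Its level in B-4 was thus close to that at 100 μM. Tspan18 was at 6.67 CPM and Oca2 at 5.28 CPM in B-4, each below every dose. Ccnb1ip1, a cyclin B1 interacting protein, was at 20.6 CPM at 0 μM and had 0.137 CPM at 100 μM and 0 counts at 150 and 200 μM, with 0.370 and 0.778 CPM in the untreated libraries. In CPM, Cst3 (cystatin C) was among the largest rises (171 CPM to 1620, 1797 and 1912 CPM, with 2601 CPM in B-4), and the ferritin light chain Ftl1 among the largest falls (1402 CPM to 658, 559 and 547 CPM).

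Doses were compared last. The 3 doses lay within 0.5 of each other on the log2 scale for 734 of the genes that were higher and 318 of those that were lower. The change grew from 100 to 150 to 200 μM for 307 and 124 genes and shrank for 227 and 90. For 809 genes that were higher the largest change was at 150 μM, and for 609 the smallest. This library was also the deepest, with 22518 genes detected against 20233 at 100 μM and 20296 at 200 μM, and the part of depth in this was not tested. Between doses, 937 genes were over 2-fold higher and 487 lower at 150 than at 100 μM, 686 and 607 at 200 than at 100 μM, and 410 and 812 at 200 than at 150 μM, with no test since each dose had 1 library. Besides Ccnb1ip1, the named genes that differed most between doses were low at 0 μM. Gm49394 was at 0.466 CPM at 0 μM and at 5.08, 1.70 and 16.4 CPM at the doses, and was not called by edgeR (adjusted p = 0.064). Mef2b, a transcription factor of the MEF2 family, was at 12.9, 2.75 and 7.85 CPM, lowest at 150 μM, and Ramp1, a subunit of the CGRP receptor, at 3.26, 15.2 and 8.67 CPM, highest at 150 μM.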

How the data were processed

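RNA of the 10 libraries was enriched on oligo(dT) beads, made into TruSeq libraries and sequenced on an Illumina instrument. The authors deposited raw counts per gene and also FPKM values, which they scaled to transcript length and library size. Per the labels, the submitters' processing notes name HISAT2 2.0.4 and GATK 3.2-2. The counting program, genome build and annotation are not given in the sources used here. The table lists 29583 rows, 22036 with an Ensembl identifier and 7547 for new loci that the authors assembled. It also holds the authors' own comparisons of single libraries, which were not used.

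Columns were matched to libraries by the code in the title. Only the 4 day 5 libraries entered the comparison. Counts were normalized by TMM in edgeR 4.0.16 (R 4.3.3) and filtered with filterByExpr at its minimum count of 10, which left 17168 genes (14236 Ensembl genes and 2932 loci). Log2 CPM used a prior count of 2, which shrinks differences of low genes. Differences from 0 μM of more than 1 at all 3 doses were counted without a test. The quasi-likelihood test treated the 3 doses as replicates (biological coefficient of variation 0.156), and so assumed that the single 0 μM library varies as they do. Untreated levels were normalized together with the day 5 libraries. Where 0 μM had 0 counts, folds were computed against 3 counts, and with 1 to 3 counts ratios carry an exact Poisson interval of 95%.

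On simulated counts of this design with 200 genes changed by 2 on the log2 scale, the count at all 3 doses recovered 198 (30 unchanged genes counted), edgeR 196 (11) and DESeq2 183 (5), over 16422 genes. At 1.5 they recovered 166, 182 and 170 over 16424 genes. The design has a single control library, whose own spread is unknown and so could not be simulated from the data. These numbers therefore do not show how far the calls in the real libraries depend on that control.

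The genes named were the 8 largest rises and falls among genes counted at all 3 doses with a symbol and at least 5 CPM, the 5 largest rises and falls in CPM, the 4 with the widest range between doses, up to 4 counted members and 2 uncounted members of highest FPKM per list, and the genes the paper names. The result for 1 gene that this rule gives is not reported here. The members, the lists and these rules were chosen with earlier results of these data known, so no list was given a p-value. KEGG and Gene Ontology names are those in the deposited table. Promoter windows, 250 bases before to 50 after the start, are from RefSeq and matched 10956 genes by symbol. Alternatives were DESeq2 1.42.0, other normalizations, filters, prior counts and limits, log2(FPKM + 1), Ensembl genes only, the untreated libraries as controls, and each treated library left out in turn.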

Additional observations from a re-analysis of the deposited data

Results flagged for a closer look

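The untreated libraries were in no main comparison, and they differed from 0 μM in the direction of the treated cells for many genes. In A-5, 565 of the 1952 genes that were higher at all 3 doses were over 2-fold above 0 μM, and 155 of the 703 that were lower were over 2-fold below it. In B-4 the numbers were 1065 and 559. No time is given for these libraries, and what they share with treated cells was not tested.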

How the results depend on the processing

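Of 58 alternative counts of genes, 40 were within 1.5 times the main one, and 504 of 645 list medians and 1320 of 1583 values of named genes moved by less than the spread between doses. Counts of genes higher at all 3 doses (1952) and lower (703) moved to 892 and 464 with at least 10 counts in every library, to 796 and 123 at a limit of 2 on the log2 scale, to 367 and 311 on log2(FPKM + 1), which shrinks low genes, and to 546 and 60 against 0 μM, A-5 and B-4 each, which was added once the data had been seen. Ensembl genes alone gave 1218 higher, and the mean of the doses gave 1219 lower. With 1 dose left out the counts lay between 1904 and 2334 higher and 812 and 863 lower. Counts called by edgeR (1474 risen, 764 fallen) moved to 977 risen with at least 10 counts in every library, to 609 and 212 with glmTreat, to 320 and 90 with 0 μM and both untreated libraries as controls, and to 1688 fallen without the fold limit. With 1 dose left out they lay between 237 and 1750 risen and 135 and 877 fallen, the lowest without 200 μM. DESeq2 called 1356 and 710, with no adjusted p for 333 genes.

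With B-4 in place of 0 μM the mean log2 difference changed sign for Sult1a1 (-0.70), Ccl2 (0.08), Fosl1 (0.23), Cst3 (-0.57), Runx1 (0.78), Omd (-2.10), Grem1 (0.19), Fkbp5 (-0.72), Mt1 (-0.73), Mt2 (-0.68), Col27a1 (-0.09), Mmp13 (-0.92), Itga10 (-0.09), P4ha2 (0.02), Etv4 (0.67), Etv5 (1.27), Nos2 (0.46), Il6 (0.68), Idi1 (0.08), Mcm5 (2.53), Birc5 (2.39), Cdc20 (2.41), Mcm3 (2.17), Irf1 (0.14) and Gbp2 (0.56). With A-5 it did so for P4ha2 (0.00). These are genes counted at all 3 doses. Of others, Cxcl12, called by edgeR, changed sign with A-5 (0.07) and B-4 (0.62), and Csf1 with B-4 (0.40). The cause was not tested. Of the 95 named genes that edgeR called, 77 were called with A-5 as the control and 41 with B-4.

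No paired analysis was possible because the groups share no replicate numbers in the labels and 0 μM has 1 library on day 5. That library cannot be left out, its own spread is unknown, and dose and replicate cannot be told apart.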

Other observations

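Among genes with a symbol and at least 5 CPM, 120 were beyond 2-fold in the same direction at all 3 doses against 0 μM, A-5 and B-4 each, a set read after the values were seen. It held members of the lists above, among them Igf2, Tnn, Sp7 and Itga8, and also genes of no list, such as Npnt and Thsd4. Npnt (nephronectin), a matrix ligand of integrin α8β1, was at 6.70 CPM at 0 μM, 8.32 and 17.4 CPM in A-5 and B-4, and 242, 649 and 487 CPM at 100, 150 and 200 μM. Its receptor chain Itga8 was at 7.39 CPM at 0 μM, 19.2 and 16.3 CPM in the untreated libraries, and 53.2, 75.2 and 57.0 CPM at the doses. Thsd4, a thrombospondin-repeat protein of microfibrils, was at 0.810 CPM at 0 μM and at 11.7, 12.5 and 18.2 CPM at the doses, with 0.337 and 0.880 CPM in the untreated libraries.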
